A study of Mus musculus with 283 samples.

Results

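The collagen genes were the 44 rows of the tumour and gland table whose name was Col, a number, the letter a and a number, out of 45657 gene entries kept. No measured value entered this choice. By the kind of protein they encode, 11 were fibrillar, 6 were basement membrane chains of type IV, 6 were chains of the type VI beaded filament and 9 were fibril-associated collagens, called FACIT. A further 3 were short-chain network collagens, 4 were transmembrane collagens, 2 were multiplexins, 1 was the anchoring fibril chain Col7a1, and Col26a1 and Col28a1 were kept as other. Values are an upper-quartile normalised signal per gene, given here as log2(signal + 1), so that a difference of 1 is a doubling for all but the lowest genes. Between genes, levels are compared per kilobase of the longest annotated transcript only.

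The series follows mouse mammary tumour models under antibodies to PD1 and CTLA4, receptors that hold T cells in check, and it held 255 tumour libraries, 9 libraries of normal mammary gland, 6 of cultured lines and 13 exome libraries, which were not analysed here. T11 and the p53 lines were grown orthotopically in syngeneic BALB/c hosts, and KPB25L in syngeneic FVB hosts, per the labels. Therapy was the pair of antibodies, at 10 mg per kg for PD1 and 125 ug for CTLA4, per the labels. For the remaining models, among them KPB-1A, KPB-Primary, C3-TAG and PyMT, strain and host are not given here. The comparison with glands therefore does not tell transplants and primary tumours apart. The labels give no age. T11 and KPB25L are parental tumour lines. T11-UV, T11-Apobec, KPB25L-UV and KPB25L-Apobec are derivatives of them, and each line is a single cultured population rather than a set of independent tumours. The labels class the 4 derivatives and KPB25L as sensitive to therapy, and T11, KPB-1A and some p53 lines, among them p53-2153F, p53-2224L, p53-2225L and p53-2336R, as resistant. KPB tumours carry K14-Cre with floxed Brca1 and p53, so the deletion begins in keratin 14 expressing epithelium. Other untreated end-stage models were KPB-Primary, KPB-1B, C3-TAG, PyMT and ILC-Pik3Ca/Cdh1Null, whose response the labels give as unknown, as they do for single tumours of further p53 lines; the header of the tumour table calls C3-TAG resistant. Normal glands came from BALB/c (NML-BALBC, 5 libraries) and FVB (NML-FVB, 4 libraries) mice, and the FVB libraries are labelled as pooled.

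Collection was at 3 days, 7 days or end stage. The 47 untreated tumours that the labels place at 3 days are called pretreatment in the header of the tumour table, so the untreated side of every 3-day comparison may have been taken before therapy began. Estimated depth was 3.45 to 149 M reads per tumour or gland library, with a median of 51.3 M. Of 27 KPB25L-UV libraries, 6 carried transcripts that mark T11: the mean of 50 T11 marker transcripts was 6.4 to 8.80 in them and 1.45 to 4.15 in the other 21, against 9.07 to 9.73 in T11. BALB/c gland replicate 1 also stood apart from its group, with collagen at 0.179% of the signal against 1.29 to 1.96% in the other 4. For the pooled comparisons and for KPB25L-UV singly, counts of called members that rest on these libraries are given with and without them.

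Collagens are triple helices of 3 chains, and each gene encodes 1 kind of chain. Fibrillar collagens such as types I and III give connective tissue its tensile strength and are made mainly by fibroblasts. Type IV forms the sheet of basement membranes beneath epithelium and around vessels, type VI forms fine filaments around cells, and FACIT collagens sit on the surface of fibrils. In mammary tumours a collagen-rich stroma is a well known feature, and collagens are made by stromal cells and, for some chains, by the tumour cells themselves. In bulk tissue, fewer cells of a type and less RNA per cell cannot be told apart.

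Promoter windows were read for members that the results turn on, to show how differently these genes begin. RefSeq (build GRCm38.p6) held a promoter for 35 of the 44 members, and the windows are the 250 bases before each RefSeq start, printed 5′ to 3′ on the gene's strand. Capitals mark CCAAT or its reverse complement ATTGG, and TATAAA or its reverse complement TTTATA. Col1a2 (chr6:4505368-4505617, plus strand) and Col3a1 (chr1:45311288-45311537, plus strand) encode chains of the main interstitial fibrils, Col11a1 (chr3:114030290-114030539, plus strand) a minor fibrillar chain, and Col10a1 (chr10:34389731-34389980, plus strand) the short-chain collagen of growth plate cartilage.
Col1a2: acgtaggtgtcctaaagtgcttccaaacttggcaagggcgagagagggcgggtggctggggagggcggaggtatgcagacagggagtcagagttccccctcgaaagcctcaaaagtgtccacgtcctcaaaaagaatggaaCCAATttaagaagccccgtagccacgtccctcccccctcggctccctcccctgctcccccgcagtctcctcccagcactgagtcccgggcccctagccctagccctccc
Col3a1: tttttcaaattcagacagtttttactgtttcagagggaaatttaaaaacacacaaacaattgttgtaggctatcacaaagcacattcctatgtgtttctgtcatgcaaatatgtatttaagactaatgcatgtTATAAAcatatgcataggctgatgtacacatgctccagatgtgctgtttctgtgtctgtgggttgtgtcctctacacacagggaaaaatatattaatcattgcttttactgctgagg
Col11a1: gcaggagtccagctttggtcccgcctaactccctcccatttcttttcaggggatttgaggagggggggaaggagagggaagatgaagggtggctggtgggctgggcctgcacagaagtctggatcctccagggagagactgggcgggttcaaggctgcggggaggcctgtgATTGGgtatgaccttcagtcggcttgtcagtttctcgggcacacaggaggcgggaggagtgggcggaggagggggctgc
Col10a1: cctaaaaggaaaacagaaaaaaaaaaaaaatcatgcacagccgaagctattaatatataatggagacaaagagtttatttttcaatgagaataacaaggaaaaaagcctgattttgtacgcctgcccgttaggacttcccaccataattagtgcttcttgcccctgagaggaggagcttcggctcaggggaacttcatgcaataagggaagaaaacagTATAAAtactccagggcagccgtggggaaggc
The Col1a2 and Col11a1 windows held a CCAAT box and no TATAAA, while Col3a1 and Col10a1 held TATAAA and no CCAAT. Both strands were searched and the motifs do not overlap each other. CCAAT was found in 13 of the 35 members, against 33.8% of all 32851 promoter windows of this length. TATAAA was found in 5 members, against 12.4% of all windows. The GC box GGGCGG or its reverse complement was found in 21 members, against 32.7% of all windows, with more than 1 such match in the Col1a2 and Col11a1 windows. These matches describe letters and say nothing of binding.

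Most collagen signal came from few genes. Collagen took a median of 1.41% of the signal in the 253 tumour samples, from 0.266 to 9.08%, and a median of 1.29% in the 9 glands. Per kilobase, the highest members in tumours were Col1a2 (mean 13.96 on the log2 scale per kilobase), Col3a1 (13.86), Col1a1 (13.76), Col4a1 (12.77) and Col18a1 (12.64). In glands they were Col3a1 (15.20), Col1a2 (14.01), Col1a1 (13.60), Col4a1 (12.86) and Col6a1 (12.75). Col1a1 and Col1a2 encode the chains of type I collagen, Col3a1 that of type III, Col4a1 a chain of all basement membranes, and Col18a1 a heparan sulphate carrying collagen whose end fragment is endostatin. At the other end Col19a1 was listed at 0 in 156 of 253 tumour samples and was the only member that did not pass the filter on low values, so tests cover 43 of 44.

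The panel genes followed through every comparison lie at known places in GRCm38. Col1a1 spans 94936224 to 94953042 on chromosome 11, Col3a1 45311538 to 45349706 on chromosome 1, and Col4a1 11198423 to 11312826 on chromosome 8. Col6a1 spans 76708792 to 76726168 on chromosome 10, Col11a1 114030540 to 114220718 on chromosome 3, and Col17a1 47646344 to 47692094 on chromosome 19. Col17a1 encodes the transmembrane collagen of hemidesmosomes, which anchors basal epithelium, and Col6a1 a core chain of type VI.

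Glands of the strains differed in 3 of 43 collagen genes, all lower in FVB, and 3.54% of all genes tested were called in that comparison. Col6a4, a type VI chain, read 11.98, 10.02, 9.55, 9.80 and 9.38 in the BALB/c glands and 4.27, 7.83, 6.38 and 8.05 in the FVB glands. Every FVB value lay below every BALB/c value, and the difference was -3.51 (SE 0.82, limma adjusted p = 0.0033). Col7a1, the chain of anchoring fibrils beneath epithelium, read 9.52, 11.07, 10.63, 11.03 and 11.03 against 7.61, 8.56, 9.29 and 9.99, a difference of -1.79 with 1 BALB/c value, that of replicate 1, inside the FVB range. Col20a1 differed by -1.95 (adjusted p = 0.045) and the 6 panel genes, none of them called, by -0.64 to 0.59. Without BALB/c replicate 1 the count was 2, as Col20a1 was no longer called (limma adjusted p = 0.14), and without FVB replicate 1 it was 0. Col20a1 lost its call in 7 of the 9 cases of a gland left out, and in 1 of the other alternatives. In BALB/c replicate 1 the mean of the fibroblast markers was 10.00, against 12.63 to 12.97 in the other 4, and the T cell markers stood at 13.3 against 10.8 to 11.4. Their part in the result was not tested.

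Between untreated end-stage tumours and glands, collagens moved in both directions. Averaged over 13 models with equal weight, 12 members were higher and 13 lower in tumours, while 18 did not pass the test. Of all genes tested, 63.2% were called and the members' share is not above that. Their median difference was -0.26 against -0.07 over all genes.

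The largest upward differences were in Col2a1, Col10a1 and Col8a2. Col2a1, the main fibril chain of cartilage, rose by 5.70 (SE 0.69, limma adjusted p = 7.5e-12). It read 0.91 to 5.37 in the glands and had model means from 2.75 in T11-Apobec to 16.05 in ILC-Pik3Ca/Cdh1Null. Col10a1 rose by 5.33 (SE 0.52), from 1.99 to 5.50 in the glands to model means of 5.12 to 13.66, and was higher than the glands in 13 of 13 models. Col8a2, a chain of the hexagonal network of endothelial basement membrane in the cornea, rose by 4.69 (SE 0.35) and was called in 13 of 13 models singly. Col12a1, a FACIT collagen of dense connective tissue, rose by 3.64 (SE 0.35) and Col7a1 by 3.53 (SE 0.22), and both were called higher in 13 of 13 models. Col16a1 was the other member called higher in every model, by 2.04 on average. All 3 short-chain collagens rose.

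The fibrillar chains divided. Col11a1, which sets fibril diameter together with type V, rose by 3.58 (SE 0.42, adjusted p = 2e-12), and Col3a1 fell by 1.40 (SE 0.39, adjusted p = 0.0012). Col3a1 read 17.53 to 18.53 in 8 glands and 13.75 in BALB/c replicate 1, and its model means ran from 14.34 in p53-2225L to 18.79 in ILC-Pik3Ca/Cdh1Null. Without that gland the Col3a1 difference was -1.86. Col1a1 did not pass, with a difference of -0.06 (SE 0.42, adjusted p = 0.91), since 6 models lay above the glands and 7 below. Col4a1 differed by 0.02 and Col6a1 by -0.34, both short of the threshold. Col17a1 differed by -0.91 (adjusted p = 0.088) and was called without BALB/c replicate 1 (-1.16, adjusted p = 0.035).

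The steepest falls were in type VI chains. Col6a6 fell by 5.03 (SE 0.56, limma adjusted p = 1.6e-13), from 7.92 to 11.13 in the glands, and Col6a4 by 3.68 (SE 0.43). Both were called lower in 13 of 13 models. In these counts each model was set against the mean of both gland strains, not against its own strain. Col6a4 was itself lower in FVB than in BALB/c glands. Its lowest gland read 4.27, against model means of up to 6.10 in p53-2336R. Col6a5 fell by 2.48 and was higher than the glands in 2 models. Col15a1, a multiplexin of basement membrane zones around vessels and muscle, fell by 1.87 (SE 0.27) and was lower in 13 of 13 models, reading 13.50 to 14.78 in 8 glands and 11.55 in BALB/c replicate 1. Without that replicate 27 members were called instead of 25, and without the KPB25L-UV libraries with T11 transcripts 25.

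**Figure D1:**
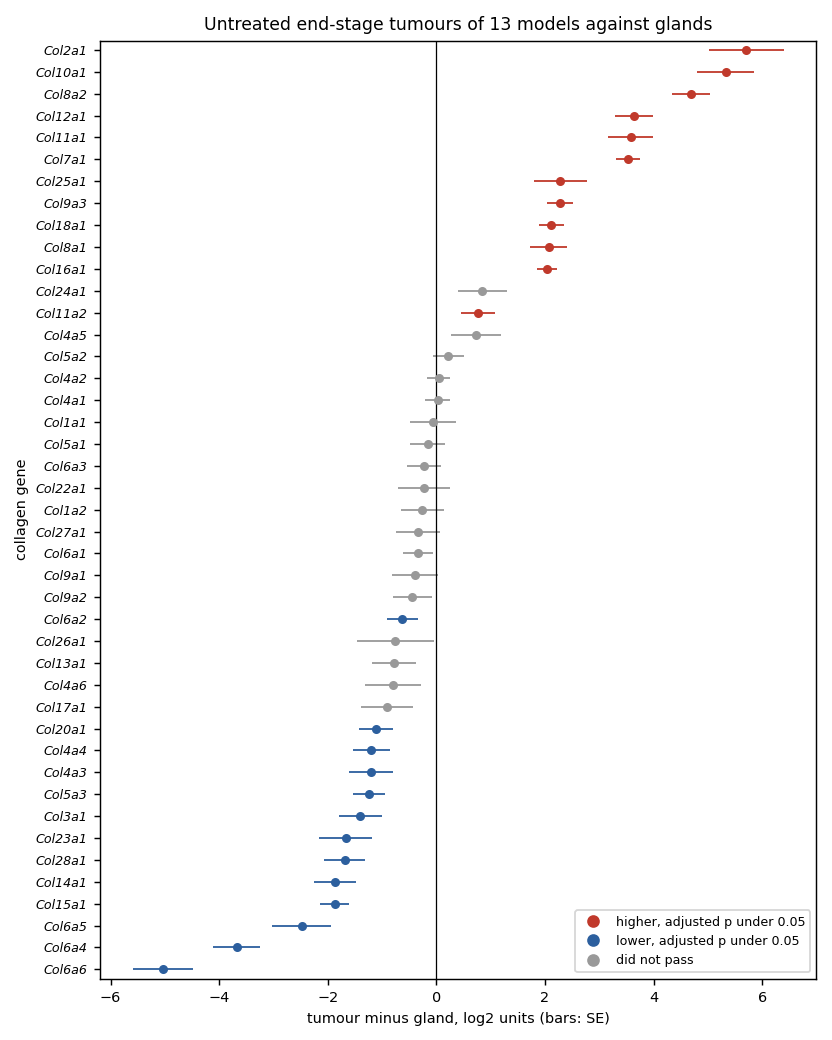
Tumour minus gland difference of 43 collagen genes on the log2 scale, averaged over 13 untreated end-stage models; points are estimates, bars are standard errors, and colour marks an adjusted p under 0.05. Col2a1, Col10a1 and Col8a2 lie farthest to the right at 5.70, 5.33 and 4.69, and Col6a6 and Col6a4 farthest to the left at -5.03 and -3.68.

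Cell type markers moved with this comparison as well. In tumours 10 of 14 fibroblast markers fell and 2 rose, and 8 of 8 adipocyte, 10 of 10 endothelial, 6 of 6 skeletal muscle and 8 of 8 T cell markers fell. Cell cycle markers rose in 8 of 8, and 3 of 5 tested cartilage markers rose. Their part in the collagen differences was not tested.

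Single models sat far apart. In ILC-Pik3Ca/Cdh1Null tumours 25 members were higher and 3 lower than the glands, with 44.3% of all genes called, and in PyMT tumours 13 were higher and 19 lower, with 50.7% called. Collagen made up 4.20% ± 0.864 (SD, n = 9) of the signal in the former and 0.601% ± 0.294 (SD, n = 5) in the latter. These comparisons share the same 9 glands.

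All 43 tested members differed between the 13 untreated end-stage models in the F test of limma, as did 98.9% of all genes, so the order of the levels says more than the test. Col1a1 stood at 18.60 ± 0.31 (SD, n = 9) in ILC-Pik3Ca/Cdh1Null, 17.72 ± 0.99 (n = 6) in KPB25L-UV, 17.69 ± 1.09 (n = 6) in KPB25L and 16.99 ± 0.25 (n = 5) in T11, and then in T11-UV and T11-Apobec. The other 7 models had means of 14.72 to 15.26. Every T11-Apobec value lay above every value of KPB-1B, the next in order, though single tumours of KPB-1A, p53-2336R, C3-TAG and KPB-Primary reached higher. Col3a1 and Col6a1 kept the same 6 models on top. Neighbours within each of these sets overlapped in their values, so their order there is not resolved.

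The type IV chains shared no single order. Col4a1 was highest in p53-2336R at 17.97 ± 0.59 (SD, n = 8), followed with overlap by p53-2225L at 16.82 ± 0.36 (n = 5), KPB-1A at 16.37 ± 0.41 (n = 5) and KPB-1B at 16.29 ± 0.29 (n = 4). ILC-Pik3Ca/Cdh1Null, first for the interstitial fibrils, had Col4a1 at 15.02 ± 0.38. The X-linked chain Col4a6, which pairs with Col4a5 in epithelial and smooth muscle basement membranes, spanned from 0.15 ± 0.34 in T11 to 13.07 ± 0.72 in PyMT. Col4a5 was highest in C3-TAG, with a mean of 13.46, and Col4a3 and Col4a4 in KPB25L, with means of 7.99 and 8.74.

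Col17a1 and the type IX chains set the T11 and KPB25L families apart from most other models. Col17a1 read 15.07 ± 0.25 (SD, n = 5) in KPB-1A, 12.40 to 13.94 on average in KPB-Primary, KPB-1B, the p53 models and ILC-Pik3Ca/Cdh1Null, and 3.70 to 4.90 in the T11 and KPB25L families. Every Col17a1 value of these 5 models lay between 2.07 and 5.51, below all those of the 6 highest models. C3-TAG and PyMT belonged to neither of these sets, so Col17a1 did not divide all the models. Col9a1, a chain of the FACIT type IX that coats cartilage fibrils, was 14.61 ± 0.65 in PyMT and at least 10.12 on average in 8 models, against 0.27 to 1.21 in the T11 and KPB25L families. Col9a3 divided the same 8 models, at 12.60 to 15.81, from those 5, at 4.75 to 6.55, with no overlap. Col2a1 was highest in ILC-Pik3Ca/Cdh1Null at 16.05 ± 1.31 and spread widely in KPB-Primary, with an SD of 2.99 over 24 tumours. Col11a1 was highest in ILC-Pik3Ca/Cdh1Null at 14.98 ± 0.54 and lowest in T11-Apobec at 7.92 ± 0.21, whose 4 values lay below all those of T11-UV.

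**Figure D2:**
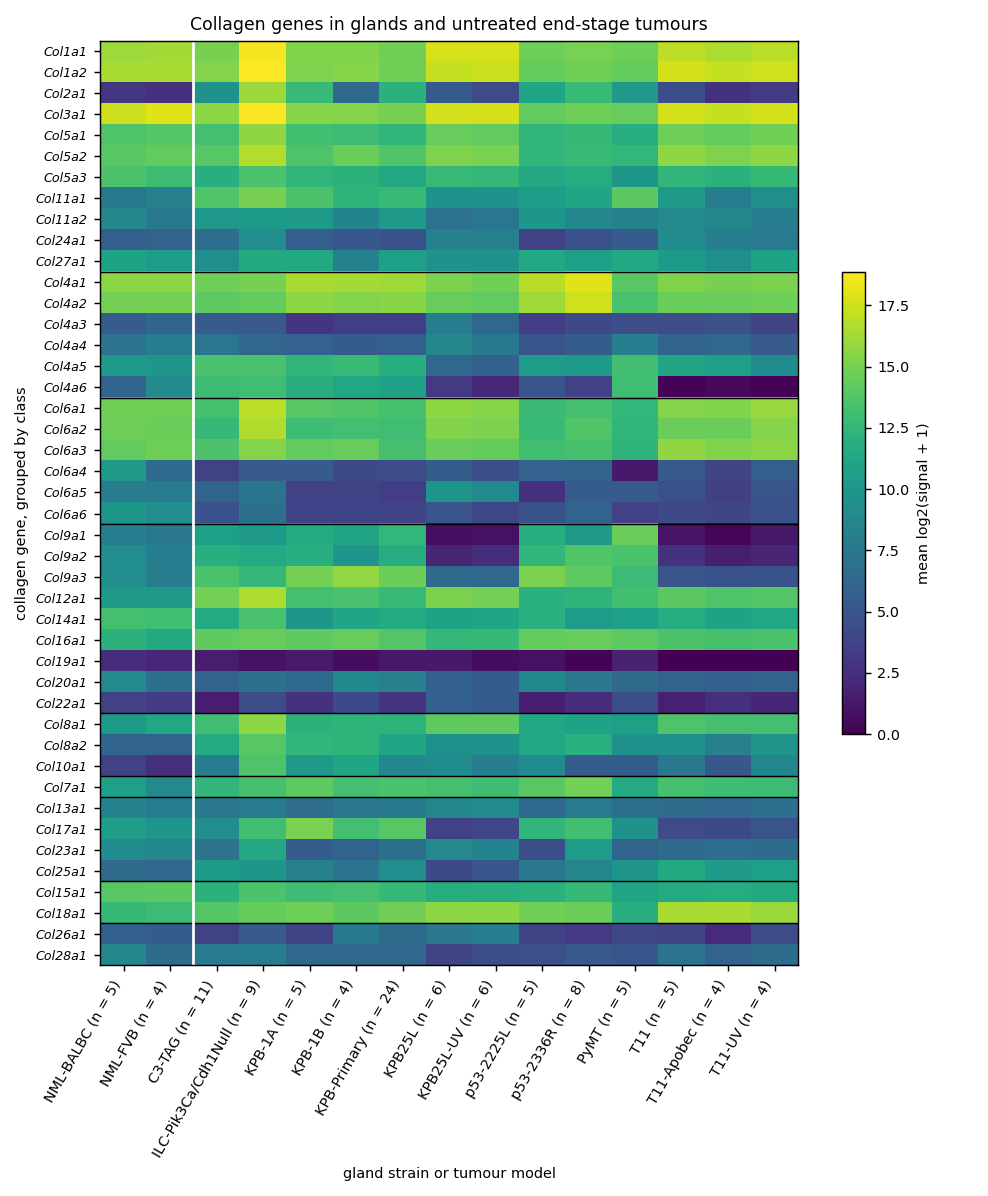
Mean log2(signal + 1) of the 44 collagen genes, in rows grouped by class, in the glands and in 13 untreated end-stage models, in columns with their number of samples. ILC-Pik3Ca/Cdh1Null is brightest for Col1a1, Col1a2 and Col3a1, p53-2336R for Col4a1 and Col4a2, and the T11 and KPB25L families are dark for Col9a1, Col4a6 and Col17a1.

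T11 and KPB25L, the parental lines of the therapy experiments, were compared as untreated 3-day tumours. T11 was higher for 5 members and lower for 10, and 32.5% of all genes were called, about the members' share. The fibrillar panel genes Col1a1 and Col3a1 were not called, and the 6 panel genes differed by -0.98 to 0.36.

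Col25a1, a transmembrane collagen of neurons, showed the widest gap. It read 10.76, 10.47, 10.61 and 10.53 in T11 and 3.69, 2.68, 4.79, 4.78 and 3.91 in KPB25L, a difference of 6.62 (SE 0.79, limma adjusted p = 2.8e-12). Col4a5 read 10.94, 10.53, 10.76 and 10.68 against 4.08, 5.55, 6.72, 6.44 and 7.86, a difference of 4.60 (SE 0.75). The remaining members called higher in T11 were Col28a1 (1.77), Col20a1 (1.23) and Col16a1 (0.69). Col28a1 lost its call without any of 8 of the 9 libraries, and Col20a1 without any of 4. Each also lost it in 2 of the other alternatives.

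In the other direction Col26a1, a collagen of testis and ovary, read 1.60, 2.65, 1.30 and 3.24 in T11 and 6.4, 7.47, 7.70, 6.17 and 12.53 in KPB25L, a difference of -5.86 (SE 1.27). Col6a5 differed by -3.96, Col22a1 by -3.84 and Col4a4 by -3.20 (adjusted p = 5.3e-06), and none of these 3 genes overlapped between the lines. Col4a3 and Col4a4 encode chains of the kidney and lung basement membrane. With sequencing flow cell as a term in the model no member was called, and Col22a1 changed sign to 1.63. Line and flow cell cannot be told apart well in these tumours.

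Cultured T11 and KPB25L cells were read for collagens made by tumour cells in the absence of host tissue. There were 3 lines of each parent with 1 library each, a parental line, an APOBEC line named T11_EF1A_APOBEC or KPB_EF1A_APOBEC, and a line named T11_V5 or KPB_25L_V1_5, in a table normalised apart from the tumours, so values are compared by range and without a test. All 44 members were above 0 in at least 1 line, and 25 were above 0 in all 6. The T11 and KPB25L lines did not overlap for 23 of 44 members, 18 of them higher in T11, while 31.1% of all genes above 0 in any line did not overlap. That share was not split by direction. Some of the 23 lay near the floor. Col22a1 read 0.46 to 2.91 in T11 lines against 0 to 0.41, the fibrillar Col24a1 1.32 to 2.87 against 0 to 0.41, and Col15a1 0.67 to 1.32 against 2.09 to 4.08. With a pseudocount of 10 their mean differences, T11 minus KPB25L, were 0.30, 0.47 and -0.68.

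Of the 11 fibrillar chains 9 were higher in every T11 line than in every KPB25L line, as were 3 of the 6 type VI chains, and the rest of both classes overlapped. Col1a2 read 14.12 to 16.12 in the T11 lines and 2.71 to 3.62 in the KPB25L lines, Col1a1 10.48 to 12.75 against 2.63 to 4.99, and Col3a1 9.79 to 13.43 against 4.24 to 6.74. Col6a3, the long chain of type VI, read 10.62 to 13.36 against 0.73 to 1.81. Col4a5 read 10.06 to 10.44 against 0 to 1.58, and Col25a1 5.88 to 7.83 against a listed 0 in each KPB25L line. Both of the last were also higher in T11 tumours. The APOBEC line held the highest of the 3 T11 values for Col1a2, Col1a1, Col3a1, Col6a3 and Col11a1.

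KPB25L cells were higher for 5 members. Col4a3 read 9.43 to 10.94 in the KPB25L lines against 2.16 to 4.63 in T11, and Col4a4 9.56 to 10.98 against 3.30 to 7.41, in the direction of the tumours. Col4a1, Col8a1 and Col15a1 were the other members higher in KPB25L lines. Per kilobase the highest members over the 6 lines were Col8a1 (10.77), Col18a1 (9.16), Col5a2 (8.12), Col4a1 (7.59) and Col4a2 (7.46), and Col8a1, a short-chain collagen made by many cultured cells, read 12.76 to 14.05 in all. Col6a1 read 9.31 to 11.80 in T11 lines and 4.15 to 5.83 in KPB25L lines, and Col11a1 2.52, 4.71 and, in the APOBEC line, 8.30 against 0 to 0.85. Col17a1 overlapped between them, at 0.46 to 3.05 and 0.41 to 2.20.

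Collagen took 0.257 to 0.604% of the signal in the T11 lines and 0.0598 to 0.145% in the KPB25L lines. As a share of the library's signal, 29 members were higher in every untreated 3-day T11 tumour than in every T11 line, 14 overlapped, and Col4a5 was higher in the lines. For KPB25L 33 members were higher in the tumours, 9 overlapped, and Col4a3 and Col4a4 were higher in the lines. Col1a1, for example, took 66.7 to 285 ppm in T11 lines and 2749 to 3371 in T11 tumours, against 0.223 to 1.42 and 3260 to 18218 for KPB25L. Of the 15 members called between T11 and KPB25L tumours, the lines differed in the same direction without overlap for 5, in the opposite direction for 1, and overlapped for 9. The opposite case was Col22a1, which lay near the floor in the lines, at 0.46 to 2.91 in T11 against 0 to 0.41. No share over all genes was computed for the split of the 15 or for the 29 and 33 members above. Neither is read as particular to collagens. Luminal epithelial markers had means of 2.54 to 2.81 in T11 lines and 8.95 to 9.38 in KPB25L lines, and fibroblast markers 5.20 to 6.36 against 3.11 to 3.99. Endothelial markers stood at 1.78 or less and T cell markers at 1.98 or less in all lines.

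**Figure D3:**
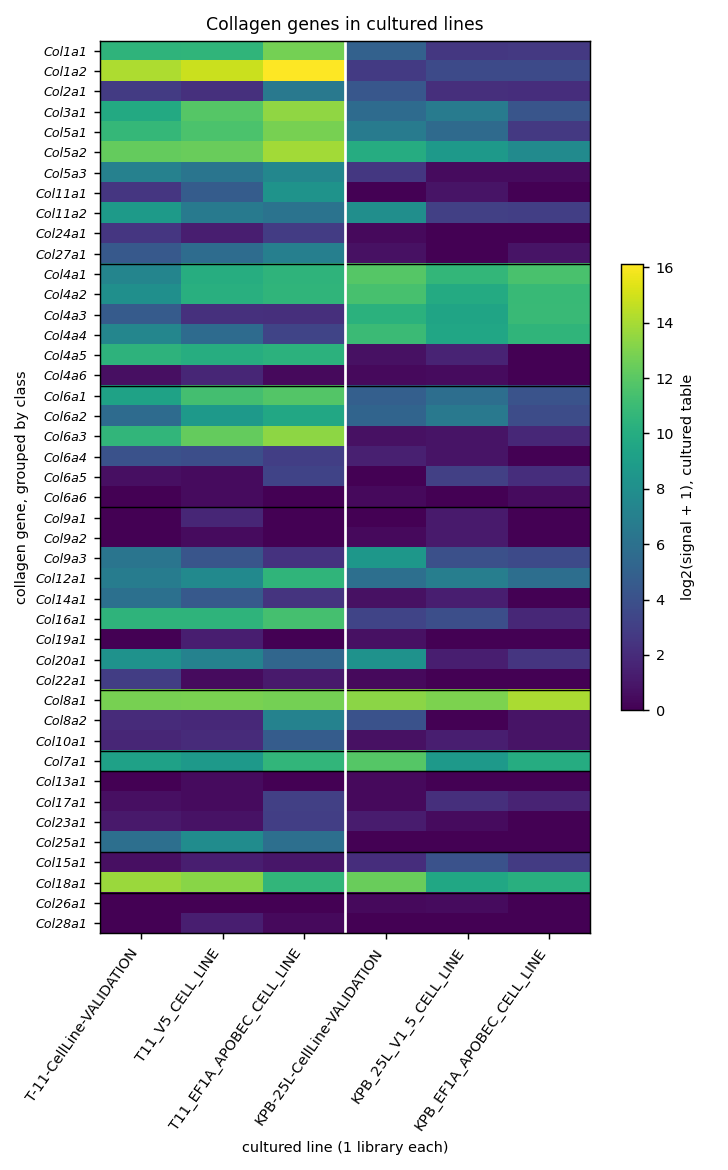
Log2(signal + 1) of the 44 collagen genes, in rows grouped by class, in 3 T11 lines on the left and 3 KPB25L lines on the right of the white line, 1 library each. Col1a2 is brightest in T11 lines at 14.12 to 16.12, Col4a3 and Col4a4 are bright in KPB25L lines, and Col8a1 is bright in all 6.

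At 7 days therapy was compared with no therapy in the sensitive models, and more collagen genes fell than rose. Averaged over T11-UV, T11-Apobec, KPB25L and KPB25L-UV, 18 members fell, 3 rose and 22 did not pass. Of all genes tested, 36.7% were called, 21.2% lower and 15.5% higher, and the median difference was -0.60 over the members and -0.07 over all genes. By class, 4 of 11 fibrillar, 3 of 6 type IV, 2 of 6 type VI, 2 of 8 FACIT and 3 of 3 short-chain chains fell, and the risers were the type VI chains Col6a5 and Col6a6 and the FACIT chain Col20a1. Over these 4 models 16 members were lower in each and 3 higher in each. The share of all genes with the same sign in each of the 4 models was not computed. With flow cell as a term 9 members were called, and 13 when only the compared groups were fitted. Without the KPB25L-UV libraries with T11 transcripts the count was 21.

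The largest falls were in Col25a1, Col10a1, Col11a1 and Col18a1. Col25a1 fell by 2.01 (SE 0.41, limma adjusted p = 6.2e-05), Col10a1 by 1.86 (SE 0.55, adjusted p = 0.0046), Col11a1 by 1.81 (SE 0.36, adjusted p = 2.6e-05) and Col18a1 by 1.42 (SE 0.18, adjusted p = 6.9e-10). Without the KPB25L-UV libraries with T11 transcripts these 4 differences were -1.745, -2.51, -2.05 and -1.55, and all were still called. Col7a1 fell by 1.18 (SE 0.17, adjusted p = 2.7e-08), and it was lower in 4 of 4 models and called in 3 singly. Of the panel, Col3a1 fell by 0.70 (adjusted p = 0.044), Col4a1 by 0.61 (adjusted p = 0.0046) and Col6a1 by 0.59 (adjusted p = 0.0089). Col1a1 differed by -0.67 (SE 0.32, adjusted p = 0.086) and Col17a1 by -0.04, and neither passed. Col1a1 passed without KPB25L-UV therapy replicate 3 or 6 or T11-UV therapy replicate 4, and Col17a1, at -1.52, with a flow cell term. The call on Col3a1 is fragile: it was lost without any of 20 libraries, with adjusted p of 0.0502 to 0.11. It was also lost with no filter on the mean, with rescaling, with a flow cell term, with only the compared groups fitted and without the KPB25L-UV libraries with T11 transcripts. Col4a1 lost its call with a flow cell term and with only the compared groups fitted, and Col6a1 with a flow cell term. Col6a6 rose by 1.54, Col6a5 by 1.30 and Col20a1 by 0.75. Col6a5 lost its call without any of 5 libraries, without T11-UV, without the libraries with T11 transcripts, with a flow cell term and with only the compared groups fitted, and Col20a1 with a flow cell term.

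T11-Apobec had the most called members at 7 days. In it 17 members fell and 2 rose, with 29.4% of all genes called, and collagen went from 1.43% ± 0.179 (SD, n = 4) of the signal in untreated to 0.478% ± 0.190 (n = 4) in treated tumours. Col11a1 read 7.28, 7.16, 7.18 and 7.35 untreated and 2.12, 5.00, 1.92 and 3.08 under therapy, a difference of -4.21 (SE 0.71, limma adjusted p = 2.8e-06). Col25a1 read 10.18, 10.25, 10.19 and 9.49 untreated and 4.79, 7.21, 5.49 and 6.25 treated, a difference of -4.09 (SE 0.83). Neither gene overlapped between arms, and therapy replicate 2 was the highest treated tumour for both. The mean of the T11 marker transcripts did not overlap either, at 8.78 to 9.03 untreated and 7.43, 8.43, 7.92 and 8.25 treated. In T11 at 7 days that mean was 9.36 to 9.55 untreated and 9.37 to 9.49 treated. Its part in the T11-Apobec falls, or in their difference from T11, was not tested.

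Further falls in T11-Apobec took in network and fibril chains. Col10a1 read 5.25, 5.67, 5.36 and 5.79 untreated and 2.12, 2.99, 2.5 and 2.24 treated, a difference of -3.06. Col8a2 read 7.63, 7.75, 8.0 and 8.23 against 3.46, 6.90, 4.66 and 5.45, a difference of -2.78. Col3a1 read 17.34, 17.48, 17.38 and 16.81 against 14.89, 16.07, 15.95 and 15.26. All treated values lay below all untreated ones for these 3 genes. Col4a1 read 14.53, 14.92, 14.90 and 14.50 against 12.36, 13.76, 13.26 and 12.77, a difference of -1.67 (SE 0.36, adjusted p = 0.00019), and Col6a1 fell by 1.10. Col1a1 read 15.74, 15.88, 15.96 and 15.47 against 14.42, 15.30, 14.57 and 14.32 and, without overlap, still did not pass, at -1.11. Col9a2 (2.69) and Col20a1 (1.59) rose. Col9a2 lost its call without any of 7 of the 8 libraries, with a pseudocount of 10 and with no filter on the mean, and Col10a1 without any of 4 libraries and with a pseudocount of 10. The count of 19 became 9 without therapy replicate 1 and 30 with only the compared groups fitted.

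Resistant T11, the parent of T11-Apobec, showed no called member at 7 days, nor any at an unadjusted p under 0.05, and no gene of the whole table was called in it by limma (61 had an unadjusted p under 0.05). Its Col11a1 read 10.94, 9.63, 10.93 and 10.19 untreated and 10.43, 10.58, 10.47 and 10.47 treated. Col25a1 read 11.55, 10.26, 11.21 and 10.87 against 11.16, 10.69, 11.40 and 10.48. In both genes the treated values fell inside the untreated range. The panel differed by -0.48 to 0.06.

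The difference between these responses was tested as an interaction, with 4.62% of all genes called. For 4 members the therapy difference was lower in T11-Apobec than in T11: Col11a1 by -4.28 (SE 1.00, limma adjusted p = 0.0051), Col25a1 by -4.05 (SE 1.17, adjusted p = 0.028), Col18a1 by -1.95 (SE 0.52, adjusted p = 0.016) and Col7a1 by -1.65 (SE 0.49, adjusted p = 0.030). With only the compared groups fitted the count was 25. Leaving out single libraries gave counts from 1 to 7: 1 without T11-Apobec therapy replicate 1, 7 without its therapy replicate 2, and 2 without T11-Apobec therapy replicate 3, T11 therapy replicate 1 or T11 untreated replicate 2. For all 4 sensitive models against T11 no member was called, with or without the KPB25L-UV libraries with T11 transcripts. With them 4 had an unadjusted p under 0.05. T11-UV against T11 gave 0, with 1 at an unadjusted p under 0.05.

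T11-UV had 1 called member, with 7.46% of all genes called. Col7a1 read 12.50, 13.02, 13.43 and 12.64 untreated and 11.40, 11.69, 11.15 and 11.93 treated, a difference of -1.36 (SE 0.34, limma adjusted p = 0.0050) without overlap. Its arms were read on different flow cells, and with a term for that no member was called. Col11a1 read 5.49, 7.78, 6.08 and 7.6 against 5.6, 7.62, 5.17 and 8.48 in T11-UV, so its arms overlapped throughout. Col3a1 read 15.40, 17.30, 16.67 and 17.38 against 16.94, 17.11, 15.55 and 17.99 in T11-UV.

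KPB25L had no called member and no called gene at 7 days, with 5 members and 1199 genes at an unadjusted p under 0.05 in limma. Col11a1 read 9.49, 8.76 and 10.15 untreated and 7.71, 7.06, 9.53 and 8.07 treated, and Col1a1 17.88, 18.12 and 18.54 against 16.83, 17.01, 18.11 and 16.91. Treated replicate 3 was within the untreated range in both genes, while the other 3 lay below it. The panel differed by -1.38 to 1.02.

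KPB25L-UV had 8 members lower and 2 higher, with 19.4% of all genes called, and its untreated replicates 3 and 4 and treated replicates 1 and 5 carried T11 transcripts. Col25a1, which T11 tumours express at a high level, read 4.63, 5.66, 9.02 and 9.50 untreated and 5.88, 5.40, 2.93, 3.53, 8.08 and 3.97 treated. Over all times Col25a1 was 5.88 to 10.43 in the 6 carriers and 1.23 to 5.66 in the other 21 KPB25L-UV libraries, with no overlap. Its difference of -2.24 became -1.19 without the carriers, and that of Col4a5 went from -1.91 to -0.16, and neither was then called.

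Col18a1 was called in KPB25L-UV with and without those libraries. It read 15.53, 15.70, 15.40 and 15.53 untreated and 14.53, 11.61, 14.52, 11.47, 14.15 and 14.65 treated, a difference of -2.05 (SE 0.34, limma adjusted p = 1.4e-05) and of -2.55 without the carriers. Treated replicates 2 and 4 were the lowest, and no treated value reached the untreated range. Col6a6 read 7.64, 6.71, 4.14 and 4.07 untreated and 5.46, 11.87, 7.20, 10.53, 5.21 and 7.35 treated, highest in those same replicates 2 and 4, and its rise of 2.30 was not called without the carriers. Col2a1 read 5.26, 6.89, 2.55 and 3.39 untreated and 1.52 to 3.30 treated, and it differed by -1.98, or by -3.76 without the carriers. In all 12 members were then called. Without treated replicate 2 the count was 4, and without treated replicate 4 it was 2. With only the compared groups fitted no member was called, Col18a1 included (adjusted p = 0.18).

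**Figure D4:**
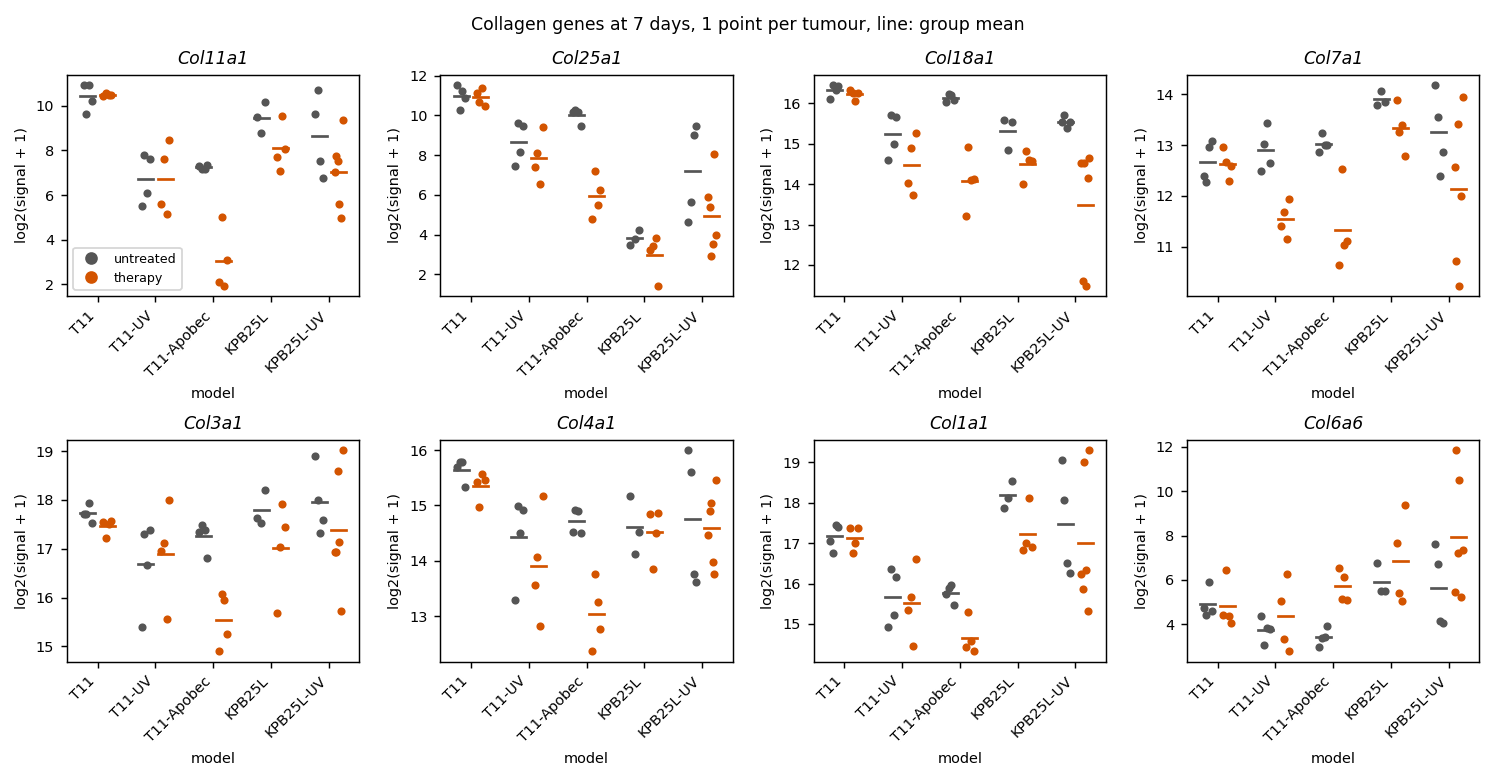
Log2(signal + 1) of 8 collagen genes at 7 days in T11 and the 4 sensitive models; each point is a tumour, grey untreated and orange under therapy, and lines are group means. In T11-Apobec the arms of Col11a1, Col25a1, Col18a1, Col7a1, Col3a1, Col4a1, Col1a1 and Col6a6 do not overlap, while in T11 they do for each gene.

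Some of the marker lists were read beside the 7-day result. Those of adipocytes, luminal and basal epithelium, skeletal muscle and cartilage are not reported here for it. In the sensitive models 8 of 8 T cell markers and 5 of 7 macrophage markers rose, and 7 of 8 cell cycle markers fell. In T11-Apobec the mean of the T cell markers was 7.10 to 7.85 untreated and 9.88 to 10.51 treated, and in T11 3.87 to 4.99 and 4.34 to 5.56. Of 14 fibroblast markers 2 rose and 1 fell, and the fibroblast mean of T11-Apobec was 9.88 to 10.41 untreated and 9.96 to 10.54 treated. Pericyte markers fell in 3 of 6, from 9.63 to 10.00 in untreated to 8.29 to 9.11 in treated T11-Apobec, 1 of 8 myofibroblast markers fell, and none of 10 endothelial markers passed. Their part in the collagen differences was not tested.

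Genes that process and bind collagen were counted in the same 7-day comparison, to be read against the 21.2% of all genes that fell. For hydroxylation and glycosylation of the chains 2 of 15 fell: Plod2, a lysyl hydroxylase, by 0.65 (limma adjusted p = 0.00018) and P3h4 by 0.47. For folding and export 3 of 8 fell, among them the coat proteins Sec24d (fell by 0.64) and Sec23a (fell by 0.40). For removal of the propeptides 3 of 8 fell, with Bmp1 (fell by 0.60, adjusted p = 0.00017) and Adamts3 (fell by 1.10) at the smallest p. For cross-linking 2 of 6 fell, Loxl4 (by 0.77) and Loxl3 (by 0.53), and 1 rose. Among proteins that bind fibrils 4 of 12 fell and 1 rose, with Sparc down by 0.83 and Fn1, fibronectin, by 0.88.

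Receptors and growth factor signalling followed. Of 10 tested collagen receptors 5 fell and 2 rose, and the discoidin receptors Ddr2 (fell by 0.63) and Ddr1 (fell by 0.56) had the smallest p. Of 12 genes of the TGF beta pathway, known to drive collagen transcription in fibroblasts, 4 fell, among them Tgfb3 (fell by 0.75) and Smad3 (fell by 0.37). Between tumours and glands, where 28.1% of all genes rose and 35.1% fell, called members of the same lists lay in both directions: 8 of 15 hydroxylation genes rose and 1 fell, with P4hb up by 1.31 and Plod2 up by 2.07, and 7 of 12 fibril-binding genes fell, with Prelp at -3.57 and Tnxb at -5.96. Cross-linking rose in 2 of 6 and fell in 3, with Loxl3 up by 2.42 and Tgm2 down by 1.39. Propeptide removal rose in 1 of 8 (Bmp1, 0.90) and fell in 4 (Pcolce2, -3.06), and folding genes rose in 2 of 8 (Fkbp10, 1.19) and fell in 3 (Tmem38b, -0.82). Receptors rose in 4 of 10, with Ddr1 at 1.15 and Itga10 at 2.24, and fell in 4, and TGF beta genes rose in 5 of 12 (Ctgf, 2.47) and fell in 2 (Tgfbr2, -1.11).

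At 3 days fewer members were called. In the sensitive models 6 members fell and 2 rose, with 13.8% of all genes called, and the median difference over the members was -0.48 against -0.07 over all genes. Col26a1 fell by 1.92, Col8a2 by 1.32, Col11a1 by 1.01 and Col18a1 by 0.83 (SE 0.19, limma adjusted p = 0.0044), and Col9a1 (2.30) and Col9a2 (1.44) rose. Col6a3 and Col5a2 fell as well, and the other 5 panel genes, not called, differed by -0.77 to 0.76. Counts ranged from 2 to 20 when single libraries were left out, both extremes coming from T11-UV therapy replicates, of which replicate 1 gave 2, replicate 2 gave 20 and replicate 3 gave 3. It was 18 without the KPB25L-UV libraries with T11 transcripts, 1 without T11-UV, 1 with a flow cell term and 0 with only the compared groups fitted. Col26a1 and Col11a1 each lost the call without 18 of the 32 libraries, and Col9a2 without 21 of 32. In the resistant models none of the 43 was called, and none had an unadjusted p under 0.05, in limma.

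In KPB25L singly 7 members rose and 2 fell at 3 days, with 14.4% of all genes called. Col9a1 read 0, 0.74, 0, 0.92 and 1.12 untreated and 1.46, 8.58, 0, 8.77 and 7.49 treated, a difference of 4.71 (SE 0.98, limma adjusted p = 0.0011). Col9a2 read 1.22, 1.89, 2.26, 2.44 and 3.79 against 2.83, 9.44, 2.13, 8.49 and 6.85. Treated replicates 2, 4 and 5 were high for both, and replicates 1 and 3 lay within or near the untreated values. Col18a1 fell by 1.27 and read 15.64, 13.47, 15.68, 13.49 and 14.16 treated, low in the same replicates 2, 4 and 5, against 15.55 to 16.11 untreated. Col4a6 (3.10), Col6a6 (3.08), Col6a5 (2.68), Col17a1 and Col14a1 also rose, and Col7a1 fell. For the risers other than Col6a5, every normal gland lay above the mean of the untreated KPB25L tumours. Col9a1 read 6.89 to 9.32 and Col9a2 7.36 to 9.84 in the glands. Col6a5 read 7.26 to 8.76 there against a mean of 8.93, and for Col18a1 and Col7a1 every gland lay below the mean. Whether these tumours held gland tissue was not tested. The mean of the T cell markers was 5.21 to 7.80 in untreated and 5.09 to 9.60 in treated KPB25L tumours, and that of the fibroblast markers 10.51 to 12.88 and 11.66 to 13.56; their part was not tested. T11-UV had 1 call at 3 days, Col5a2 at -1.27, with 14.1% of all genes called, and T11-Apobec 1, Col18a1 at -1.53, with 0.125% called. KPB25L-UV had none, with 14 members at an unadjusted p under 0.05. Without its libraries with T11 transcripts it also had none, with 18 members at that level.

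By end stage no member was called in the sensitive or the resistant models as a whole, with 7 and 1 at an unadjusted p under 0.05 in limma. The count in the sensitive models was also 0 without the KPB25L-UV libraries with T11 transcripts. In T11-Apobec, collagen took 1.57% ± 0.0661 (SD, n = 4) of the signal in treated and 1.56% ± 0.161 (n = 4) in untreated tumours at this time. Among single models Col6a3 fell by 1.76 in KPB25L-UV (SE 0.40, limma adjusted p = 0.0028), with 5.97% of all genes called, and by 1.52 without the libraries with T11 transcripts (adjusted p = 0.017). Col20a1 rose by 1.42 in p53-2336R (adjusted p = 0.036), with 1.2% called. Whether the therapy difference itself changed between times was not tested.

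**Figure D5:**
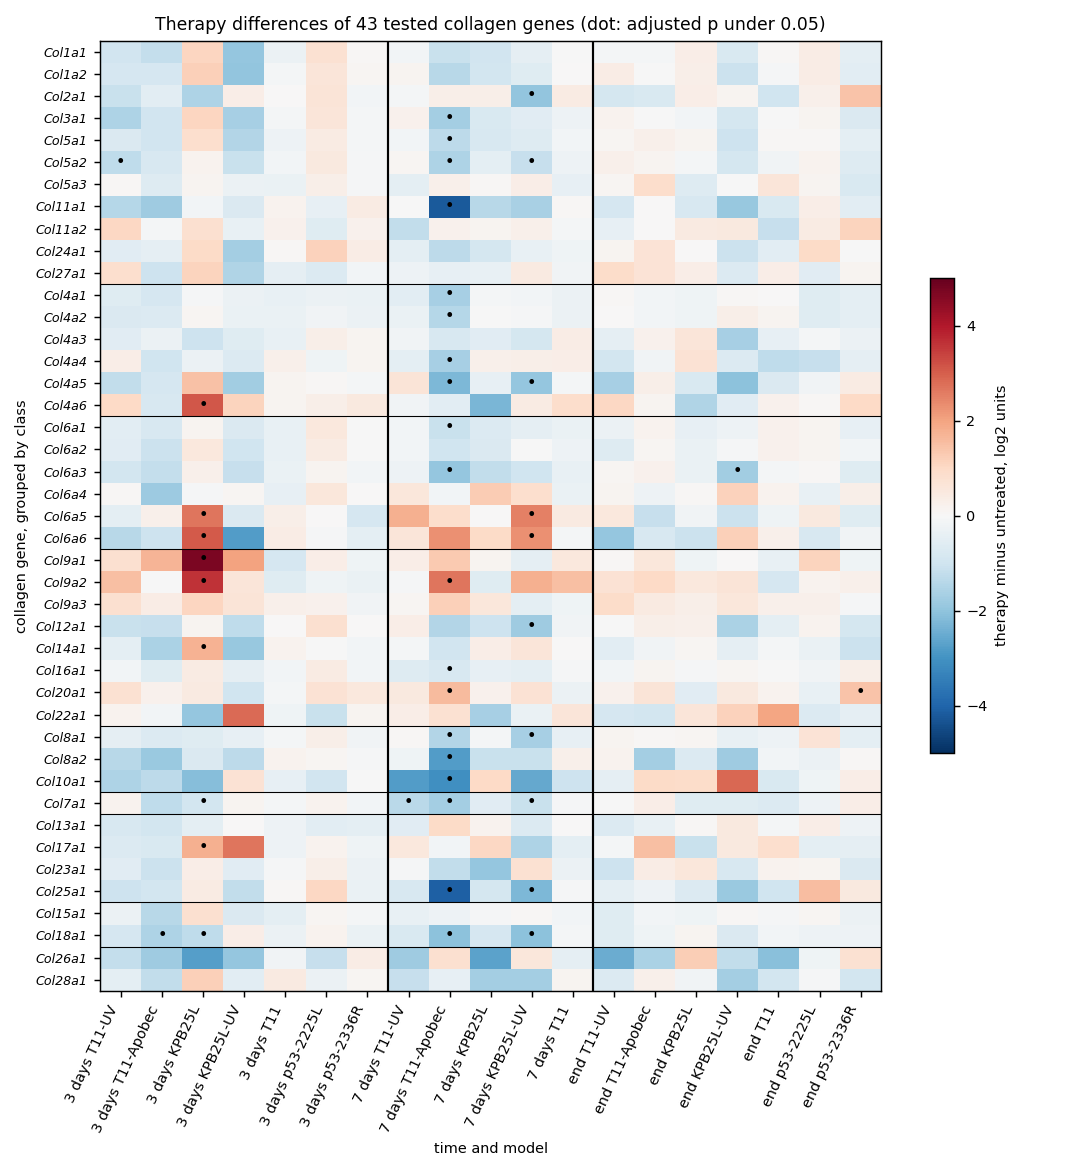
Therapy minus untreated difference on the log2 scale for 43 tested collagen genes, in rows grouped by class, for each model at 3 days, 7 days and end stage, in columns; blue is lower and red higher under therapy, and dots mark an adjusted p under 0.05. The T11-Apobec column at 7 days has 19 dots and is bluest at Col11a1 (-4.21) and Col25a1 (-4.09), the T11 columns have none, and the KPB25L column at 3 days is reddest at Col9a1 (4.71).

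Over 7 models, untreated tumours at end stage were compared with those at 3 days, and 3 members changed. Col6a6 fell by 1.21, Col5a3 fell by 0.47 and Col2a1 rose by 0.91, with 5.35% of all genes called and none of the panel, which differed by -0.52 to 0.37. Col5a3 lost its call in 33 of 66 cases of a library left out and with no filter on the mean. Without the KPB25L-UV libraries with T11 transcripts 4 members were called, these 3 among them. In KPB25L-UV singly 16 members were lower and none higher at end stage, with 15.9% of all genes called; its difference from the other models was not tested. Its Col6a6 read 9.44, 11.73, 6.60 and 8.17 at 3 days and 4.11, 4.88, 3.29, 3.53, 4.28 and 4.20 at end stage, a fall of 4.94 on the log2 scale (SE 0.86, limma adjusted p = 2.5e-05) with no overlap. Col1a1 read 20.43, 20.60, 18.17 and 18.37 at 3 days and 17.83, 18.13, 16.17, 17.69, 17.34 and 19.18 at end stage, and Col3a1 20.30, 20.55, 17.94 and 18.09 against 17.29, 17.89, 17.51, 17.26, 17.42 and 18.73. For both, 3-day replicates 1 and 2 stood above replicates 3 and 4, of which replicate 3 carried T11 transcripts. Collagen reached 5.55% ± 3.78 (SD, n = 4) of the signal in those 3-day tumours, and their fibroblast markers had a mean of 11.98 to 13.76, against 10.93 to 12.18 at end stage; their part was not tested. Without the libraries with T11 transcripts 15 members were lower and 1 higher, with 14.4% of all genes called; Col6a6 differed by -5.90 and Col1a1 by -2.16, and Col17a1 and Col9a2 were no longer called.

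In p53-2336R 4 members were higher and 2 lower at end stage, with 4.01% of all genes called. Col2a1 read 10.08, 9.57 and 10.03 at 3 days and 12.76, 12.85, 15.28, 13.60, 13.66, 10.12, 9.28 and 14.94 at end stage, a rise of 2.92 (SE 0.69, limma adjusted p = 0.0037). Col23a1, a transmembrane collagen, read 13.01, 12.81 and 13.24 at 3 days and 8.86, 9.04, 10.24, 9.51, 9.50, 12.86, 13.11 and 9.63 at end stage, a fall of 2.68. End-stage replicates 6 and 7 lay with the 3-day tumours in both genes, and the other 6 lay apart from them.

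Untreated 3-day tumours of 5 sensitive and 7 resistant models, with model means as replicates, gave no called member and no called gene, with 23 members and 3694 genes at an unadjusted p under 0.05 in limma. The smallest adjusted p was 0.057, for Col12a1 (2.32), Col6a1 (1.76) and Col9a3 (-6.16). For Col9a3 the sensitive models had means of 5.35 to 7.13, and resistant T11 had 5.12, next to its own derivatives, while the other 6 resistant models had 10.72 to 15.11. Without T11 the count was 19, with 13 higher and 6 lower in sensitive models and 12.5% of all genes called. Without the KPB25L-UV libraries with T11 transcripts it was 0. All 5 sensitive models derive from T11 or KPB25L, so response class and line of origin cannot be told apart.

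Across the 262 tumour and gland samples, which share libraries, depth and model structure, members fell into companies that the naming rule did not use. Col1a1 moved most closely with Col1a2 (Pearson r = 0.93), Col5a1 (0.91), Col6a2 (0.90) and Col3a1 (0.89). Outside the family its nearest genes were Mfap4 (0.89), Lrrc15 (0.87), P4ha3 (0.84), Mmp2 (0.82) and Adamts2 (0.81). Col11a1 kept other company: among members Col8a2 (0.77), Col4a6 (0.74) and Col2a1 (0.73), and outside the family Fat1 (0.82), Igsf3 (0.79), Map2 (0.79) and Adamts3 (0.77). Its correlation with Col1a1 was -0.09. These values describe the samples at hand and carry no test.

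Several collagen genes are neighbours in the genome. Col4a1 and Col4a2, whose products assemble together, start 21 bases apart on opposite strands of chromosome 8 and had r = 0.99. Col4a3 and Col4a4 start 72 bases apart on chromosome 1 (r = 0.80), and Col4a5 and Col4a6 1309 bases apart on the X chromosome (r = 0.64). Col3a1 and Col5a2 lie tail to tail on chromosome 1 with r = 0.89, and Col9a1 and Col19a1, also tail to tail there, r = 0.25. Col6a1 and Col6a2 follow each other on chromosome 10 with r = 0.94. The type VI genes Col6a4, Col6a5 and Col6a6 lie in a row on chromosome 9 and had r = 0.28 to 0.59 between them. Whether the counting used strand is not given in the sources used here, so reads at the shared edge of Col4a1 and Col4a2 cannot be told apart.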

How the data were processed

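RNA-seq libraries of 255 tumours, 9 glands and 6 cultured lines were used. Library preparation used Qiagen RNA kits and TruSeq mRNA chemistry, per the labels' protocols. The tools named in the submitters' processing notes are Salmon, STAR, Picard and SAMtools, with versions not given in the sources used here, and the genome is mm10. The authors deposited a signal per gene scaled to the upper quartile, which over genes above 0 was 2048.974 in each tumour or gland library and 1000 in each cultured line. The tables were normalised apart. Values were put on a log2(signal + 1) scale. Depth was estimated from the steps between low values and limits precision most in the shallowest libraries.

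Libraries of 1 mouse were averaged, which left 262 samples. The mouse numbers DH1012, DH1013, DH1014 and DH1015 stand in the labels of treated T11-UV tumours at 7 days and of treated KPB25L-UV tumours at end stage; both sets were kept as separate mice. Genes above 0 in at least 4 fitted samples and in the upper 66.7% by mean were tested with limma 3.58.1 in R 4.3.3, with moderated variances that follow the mean, Benjamini-Hochberg adjustment over all genes tested and a threshold of 0.05. The therapy fit held 192 samples in 47 groups (20848 genes), the tumour and gland fit 105 samples in 15 groups (21364 genes), and the class fit 12 model means (17920 genes). P-values measure spread between mice, between pooled samples for the FVB glands, or between models in the class fit. In the other comparisons averaged over several models they take in no spread between models. The method was tested on simulated data.

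The members, comparisons and lists were chosen with earlier results of these data known. Named with values were a panel of 6 genes, up to 4 called members per direction with the largest difference, the 5 highest per kilobase in glands and lines, 2 called genes per pathway list and the 5 genes most like Col1a1 and Col11a1, of which 1 is not reported here; others named for a count or a class were chosen after their values were seen. Alternatives were a pseudocount of 10, no filter on the mean, rescaling by median ratios, a flow cell term, a fit of the compared groups only, and leaving out libraries or models. The alternatives without T11-UV, without the 2 shallowest p53-2153F libraries and, for glands, class and KPB25L-UV singly, without the libraries with T11 transcripts were chosen after seeing the data. Positions come from the GENCODE annotation of GRCm38. Exome libraries were not analysed here.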

Additional observations from a re-analysis of the deposited data

Results flagged for a closer look

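Of 120 combinations of a named gene and a group of 4 to 10 samples, 10 held a library that stood apart from its group, and chance alone would flag about 1 in 20. BALB/c gland replicate 1 accounted for 5 of them, with Col3a1 at 13.75, Col4a1 at 13.72, Col6a1 at 12.83, Col17a1 at 8.55 and Col11a1 at 5.30, each below the other 4 glands of its strain. In KPB25L at 7 days, therapy replicate 3 had Col1a1 at 18.11 against 16.83 to 17.01 in the other treated tumours. In T11-Apobec at 7 days, untreated replicate 4 had Col25a1 at 9.49 against 10.18 to 10.25. The others were high values of type VI chains: Col6a5 at 5.48 in T11 untreated replicate 3, Col6a5 at 4.81 in T11-UV untreated replicate 2 and Col6a6 at 6.46 in T11 therapy replicate 2, all at 7 days, against 4.78 to 4.84, 4.06 to 4.11 and 4.04 to 4.42 in the rest of their groups.

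The 7-day therapy difference was tested between T11-Apobec and its parent T11, and limma called Col11a1 (-4.28, adjusted p = 0.0051), Col25a1 (-4.05, adjusted p = 0.028), Col18a1 (-1.95, adjusted p = 0.016) and Col7a1 (-1.65, adjusted p = 0.030). Both arms of both models were read on the same flow cell at 7 days.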

How the results depend on the processing

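No paired analysis was possible because replicate numbers follow the order of the samples and the labels tie no treated mouse to an untreated one. Counts of called collagen genes that moved by over 1.5 times were as follows. With a flow cell term the 7-day count in sensitive models was 9, that of T11-UV 0, the 3-day count in sensitive models 1 and T11 against KPB25L 0. With only the compared groups fitted, the 7-day counts were 13 in sensitive models, 30 in T11-Apobec, 0 in KPB25L-UV and 25 for T11-Apobec against T11, the 3-day count was 0 and the growth count 5. At 3 days the sensitive models gave 5 with a pseudocount of 10, 5 with no filter on the mean, 18 without the KPB25L-UV libraries with T11 transcripts and 1 without T11-UV. The strain count was 5 with a pseudocount of 10.

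Leaving out single libraries (for response class single models, for tumours against glands single glands or models) gave 17 to 25 at 7 days in sensitive models, 9 to 20 in T11-Apobec, 2 to 12 in KPB25L-UV, 1 to 2 in T11-UV and 1 to 7 for T11-Apobec against T11. It gave 2 to 20 at 3 days in sensitive models, 2 to 4 for growth, 12 to 15 for T11 against KPB25L, 0 to 19 for response class, 23 to 29 for tumours against glands and 0 to 3 for strain. At 3 days the count was 5 without KPB25L therapy replicate 2 or 4, T11-Apobec therapy replicate 2 or untreated replicate 3, or T11-UV untreated replicate 1, 3 or 4, 4 without KPB25L-UV untreated replicate 1 and 16 without its untreated replicate 3. T11-UV at 7 days gave 2 without therapy replicate 3 or 4 or untreated replicate 1.

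Of 1749 values of named genes under alternatives, 1456 kept direction and call, 252 kept direction and lost the call, 12 gained it and 29 changed sign, 1 of them in a called gene, Col22a1, at 1.63 with a flow cell term. The rest were near 0 in the main result: Col17a1 at 7 days was 0.0094 after rescaling and -0.25 to 0.29 without single libraries, and against glands, without single glands or models, Col1a1 was -0.45 to 0.12 and Col4a1 -0.21 to 0.15. The cause of these shifts was not tested.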
